A study of Homo sapiens with 6 samples.

Results

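A set of 9 genes, known as markers of the intestinal crypt base or of its Wnt-high progenitors, was followed through 3 knockdowns in LS180 cells. They are *LGR5*, *ASCL2*, *CD44*, *CDCA7*, *CEMIP*, *SOX9*, *SOX4*, *SMOC2* and *PROM1*. They were found by symbol in the array's annotation, and all 9 had a probe set, 1 each, among 14812 named genes. LS180 is an established human colorectal adenocarcinoma line. Cells received an siRNA against *CTNNB1*, an siRNA against *MYC* or an siRNA against the long non-coding RNA MYU, and each of these was set against control siRNA cells. Total RNA was hybridised to 6 Affymetrix arrays, 1 per knockdown and 1 control named for each knockdown, so there are 3 pairs and no replicates. The labels give neither the number of siRNA sequences per target nor the time after transfection, and 1 tag of the array titled for CTNNB1 reads CTNNB2.

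Stem cells at the base of the intestinal crypt depend on Wnt signals, which stabilise beta-catenin, the product of *CTNNB1*, and let it act with TCF/LEF factors on the promoters and enhancers of target genes. *MYC* is one such target and drives the growth and division of the progenitors. As cells leave the crypt base they lose this signal, stop dividing and take on the genes of mature epithelium. In colorectal tumours the pathway is commonly active without a signal from outside, and many crypt base genes are then expressed throughout the tumour.

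Values are log2 differences, the knockdown array minus its own control array, with log base 2 assumed from the values. The deposited values were centred within each pair, so expression levels are not kept, the control array holds the mirror image of its knockdown array, and a gene that is not expressed cannot be told from one that did not differ. For the same reason the cell type of the line could not be checked against the levels of its markers. No replicate check or p-value can be given with single arrays, "higher" and "lower" describe these arrays, and the number of arrays limits the precision. The targeted *MYC* transcript had a difference of -2.38 with CTNNB1 siRNA, -1.18 with MYC siRNA and 0.04 with MYU siRNA, and the MYU transcript, listed as *VPS9D1-AS1*, had -0.53, -0.24 and -0.50 in the same order. With its own siRNA the MYU transcript was thus less than 1.5-fold lower, and no lower than with CTNNB1 siRNA. *CTNNB1* itself has no named probe set and was not analysed here. Both the CTNNB1 control and the MYC control are numbered 1 in their titles and may share RNA or a hybridisation. Values of these pairs are therefore given side by side and cannot be taken as independent.

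With beta-catenin targeted, 3 of the 9 markers were at least 2-fold lower, against 4.14% of all genes, and 0 were at least 2-fold higher, against 2.8% of all genes. They were the receptor genes *CD44* and *LGR5* and the chromatin gene *CDCA7*. A further 3, *SOX4*, *ASCL2* and *SMOC2*, were between 1.5-fold and 2-fold lower, which makes 6 of 9 at 1.5-fold, against 9.8% of all genes. *CEMIP*, *SOX9* and *PROM1* lay within 1.5-fold. The median of the 9 was -0.73, while the median of all genes was 0. With MYC targeted, 2 of 9 were at least 2-fold lower, *CDCA7* and *CEMIP*, against 0.446% of all genes, and 3 of 9 at 1.5-fold, against 3.63%, with a median of -0.47. With MYU targeted, 0 of 9 reached 2-fold lower, against 0.0945% of all genes, and 2 of 9, *CEMIP* and *LGR5*, reached 1.5-fold, against 1.21%, with a median of -0.25. *CEMIP* in the MYC pair (2.02-fold) and *LGR5* in the MYU pair (1.502-fold) were only just past these thresholds. None of the 9 was 2-fold higher with MYC siRNA, where 0.412% of genes were, or with MYU siRNA, where 0.0608% were. The markers were chosen with earlier results of these arrays known, so these counts describe the arrays and are no test.

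**Figure D1:**
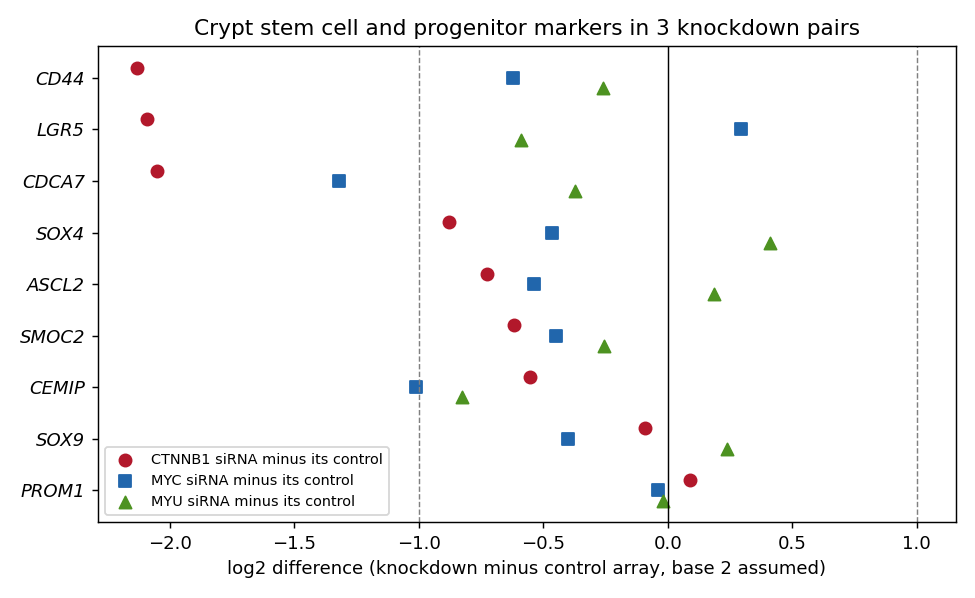
Log2 difference of each of the 9 markers (rows) in the CTNNB1, MYC and MYU pairs (circles, squares and triangles), knockdown minus its own control, 1 array on each side, dashed lines at 2-fold. *CD44*, *LGR5* and *CDCA7* sit near -2 in the CTNNB1 pair alone, while *CEMIP* has its own lowest value in the MYC pair at -1.01, where *CDCA7* is lower at -1.32.

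*LGR5* encodes the R-spondin receptor that marks crypt base stem cells. Its centred value was -1.05 in the CTNNB1 siRNA array, against 1.05 in its control, a 4.26-fold lower value (-2.09). Only 29 of the 14812 genes had a lower difference in that pair. In the MYC pair the direction was the other one, with 0.15 in the MYC siRNA array, against -0.15 in its control, a difference of 0.30 that lay above 91.2% of genes. With MYU siRNA *LGR5* was 1.502-fold lower (-0.59), only just past the 1.5-fold threshold, with 175 genes below it. *LGR5* was the 1 marker of the 9 above 0 in the MYC pair.

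*CD44*, the hyaluronan receptor and a surface marker of crypt progenitors and of tumour-initiating colorectal cells, had -1.07 in the CTNNB1 siRNA array, against 1.07 in its control. The difference of -2.13 (4.39-fold lower) was the largest of the 9 markers, and 24 genes lay below it. The MYC pair gave -0.62 (1.54-fold lower), and the MYU pair -0.26. All 3 differences were thus below 0, and the one in the CTNNB1 pair was the farthest from it. The array's single value per gene does not separate the splice variants of *CD44*.

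*CDCA7* encodes a zinc finger protein that recruits the remodeller HELLS to chromatin for the maintenance of DNA methylation, and in mice its expression is high in the crypt base. Its centred value was -1.03 in the CTNNB1 siRNA array, against 1.03 in the control, and -0.66 in the MYC siRNA array, against 0.66 in the control. These were differences of -2.05 (4.15-fold lower) and -1.32 (2.50-fold lower). Among all genes 39 lay below it with CTNNB1 siRNA and 15 with MYC siRNA. It was the 1 marker at least 2-fold lower in both pairs, and its value with MYU siRNA was -0.37.

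*PROM1*, which encodes CD133, a membrane protein used to isolate stem and tumour-initiating cells, had a value of 0.09 with CTNNB1 siRNA, -0.04 with MYC siRNA and -0.02 with MYU siRNA. It was the marker nearest to 0 in the MYC and MYU pairs, and in the CTNNB1 pair it was as near to 0 as *SOX9* (-0.09). Without levels these values do not show whether the gene was expressed.

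None of the transcription factor genes of the set was 2-fold apart in any pair. *ASCL2*, a basic helix-loop-helix factor that specifies the crypt stem cell state and is itself a Wnt target, had a difference of -0.73 (1.65-fold lower) with CTNNB1 siRNA and -0.54 (1.45-fold lower) with MYC siRNA, while MYU siRNA gave 0.19. *SOX4*, a factor of progenitor and tumour cells, had -0.88 (1.84-fold lower), -0.47 and 0.41, and in the MYU pair only 341 genes stood above it. *SOX9*, a factor of crypt base and Paneth cells that is known as a beta-catenin target, had -0.09, -0.40 and 0.24. All 3 factors were therefore below 0 in the CTNNB1 and MYC pairs and above 0 in the MYU pair. *SOX9* was within 1.07-fold of its control with beta-catenin targeted, where 31.1% of all genes had a lower value.

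Secreted proteins make up the rest of the set. *CEMIP* encodes a hyaluronan-binding protein that promotes the breakdown of hyaluronan and is raised in colorectal tumours. It had centred values of -0.28 in the CTNNB1 siRNA array, against 0.28 in its control, -0.51 in the MYC siRNA array, against 0.51 in its control, and -0.41 in the MYU siRNA array, against 0.41 in its control. The differences were -0.55 (1.47-fold lower), -1.01 (2.02-fold lower) and -0.82 (1.77-fold lower). With MYC siRNA 60 genes and with MYU siRNA 40 genes lay below it, but 1561 did with CTNNB1 siRNA. Its distance from 0 was smaller in the CTNNB1 pair than in either other pair, while all genes together were spread widest there, with a standard deviation of 0.51, against 0.28 for MYC siRNA and 0.20 for MYU siRNA. *SMOC2*, a matrix protein gene of the mouse stem cell signature, had -0.62 (1.54-fold lower), -0.45 and -0.25.

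*CD44*, *CDCA7*, *CEMIP* and *SMOC2* were the 4 of 9 markers below 0 in all 3 pairs, a pattern shown by 17.3% of all genes. For each pair alone, 8, 8 and 6 of the 9 were below 0, against 48.9%, 49.4% and 48.3% of all genes.

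**Figure D2:**
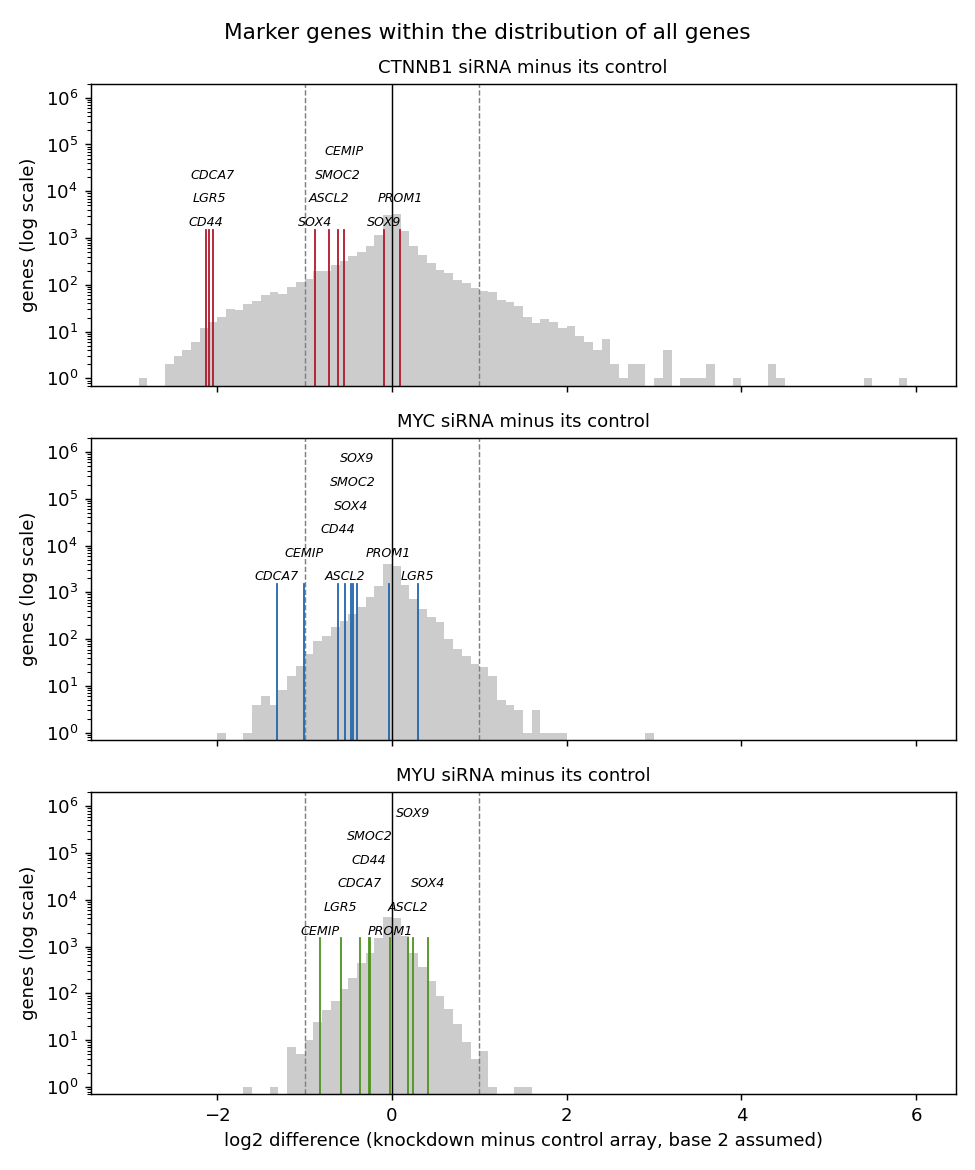
Histogram of the log2 differences of 14812 genes (grey, log count axis) in each pair, with the 9 markers as coloured lines. In the CTNNB1 pair *CD44*, *LGR5* and *CDCA7* stand in the lower tail with at most 39 genes below any of them, and in the MYU pair *CEMIP* has 40 genes below it and *SOX4* has 341 above it.

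For each marker past 2-fold in any pair, the 3 protein-coding genes nearest to it over the 3 differences were looked up among 11911, by Euclidean distance on the log2 scale. *CD44* was closest to *SGO1*, which protects centromeric cohesion, at 0.12, to *TOP2A*, the topoisomerase of dividing cells, at 0.15 and to *ARHGAP11A* at 0.16. The nearest to *CDCA7* were *NEMP1* at 0.19, the mitotic kinase gene *PBK* at 0.21 and *MCM3*, a subunit of the replicative helicase, at 0.24. *CEMIP* was nearest to *ANKRD22* at 0.25, *BLTP3A* at 0.26 and *MLEC* at 0.28. *LGR5* had no gene as close. Its nearest were *CIP2A* at 0.47, *RHOBTB3* at 0.58 and *NAV3* at 0.64. These distances rest on 3 values per gene, so they order genes and say no more.

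The promoters of *CDCA7*, *CD44* and *CEMIP*, the 2-fold lower markers with a RefSeq promoter window, are shown so that the letters bound by TCF/LEF, E2F and MYC can be looked for beside these values. Of the 9 markers 6 matched the RefSeq promoter table of build GRCh38.p14. Each window holds the 250 bases before the annotated start of the gene, plus strand in these genes. It lies at chr2:173354622-173354871 for *CDCA7*, chr11:35138921-35139170 for *CD44* and chr15:80779120-80779369 for *CEMIP*. Capitals mark a TCF/LEF core (CTTTGA) or an E2F motif (TTTCCCGC or TTTGGCGC), on either strand.
CDCA7: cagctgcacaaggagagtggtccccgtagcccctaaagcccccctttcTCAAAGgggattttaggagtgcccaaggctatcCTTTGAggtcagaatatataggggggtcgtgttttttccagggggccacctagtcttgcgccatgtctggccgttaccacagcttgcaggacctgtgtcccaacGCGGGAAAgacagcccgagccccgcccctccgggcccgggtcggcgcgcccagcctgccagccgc
CD44: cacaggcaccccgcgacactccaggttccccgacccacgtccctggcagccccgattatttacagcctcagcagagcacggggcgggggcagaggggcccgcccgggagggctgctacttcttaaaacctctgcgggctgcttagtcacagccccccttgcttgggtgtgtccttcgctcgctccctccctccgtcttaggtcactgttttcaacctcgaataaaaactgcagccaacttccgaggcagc
CEMIP: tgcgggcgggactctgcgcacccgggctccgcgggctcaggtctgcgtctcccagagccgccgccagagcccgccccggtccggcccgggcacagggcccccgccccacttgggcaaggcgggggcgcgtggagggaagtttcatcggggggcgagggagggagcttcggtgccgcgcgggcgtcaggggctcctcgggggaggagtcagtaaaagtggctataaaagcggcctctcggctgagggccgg

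The *CDCA7* window held 2 TCF/LEF cores, beginning 202 and 169 bases before the start, and 1 E2F motif beginning 65 bases before it. These matches do not overlap one another. Of 35116 promoter windows of the same length, 11.2% held a TCF/LEF core, 0.977% held at least 2, 1.93% held an E2F motif and 0.177% held both a core and an E2F motif. The 2 combined patterns counted are those that the *CDCA7* window itself holds, so their shares are no test. The windows of *CD44* and *CEMIP* held neither motif. The E-box CACGTG, the core bound by MYC with MAX, which reads the same on both strands, was in none of the windows of the 6 markers, against 6.34% of all windows. The GC box GGGCGG was found in *CDCA7*, *CD44*, *CEMIP*, *SMOC2* and 1 of the 4 windows of *PROM1*, and in 42.6% of all windows. Another *PROM1* window held a TCF/LEF core 179 bases before its start, and the *SOX4* window held none of these motifs. A match is a description of the letters, and beta-catenin is known to act largely through distant enhancers, which were not searched.

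Paralogues of the markers did not share their differences in every case. *LGR4*, the more widely expressed R-spondin receptor, was 2-fold higher with CTNNB1 siRNA (1.20), where *LGR5* was lower (-2.09), and *LGR6* had a value of 0.00. *CDCA7L* lay on the same side as its relative, at -1.79 with CTNNB1 siRNA, -0.77 with MYC siRNA and -0.51 with MYU siRNA. *CEMIP2*, a transmembrane protein related to CEMIP, was 2-fold higher with MYC siRNA (1.11), where *CEMIP* was 2-fold lower (-1.01), and had 0.35 with CTNNB1 siRNA and -0.08 with MYU siRNA. *PROM2* had 0.73, 0.71 and -0.15, against values near 0 for *PROM1*. *SMOC1* lay between -0.21 and 0.03. Over the list of 10 measured paralogues and relatives, out of 16 listed, 1 was 2-fold lower and 1 higher in the CTNNB1 pair. The shares over all genes were 4.14% and 2.8%, and the median of the list was -0.01. Of 18 other *SOX* family genes, 0 were 1.5-fold apart in any pair, while 9.8% of all genes were 1.5-fold lower in the CTNNB1 pair. In that pair these 18 lay between -0.19 and 0.34, against -0.88 for *SOX4* and -0.09 for *SOX9*.

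**Figure D3:**
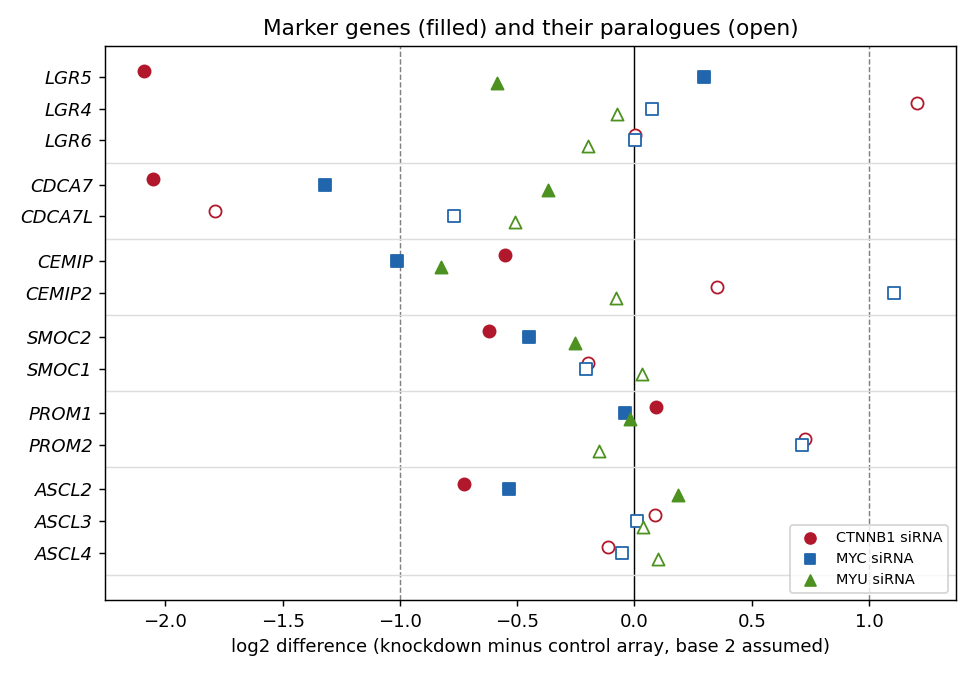
Log2 differences of 6 markers (filled) and their measured paralogues (open) in the CTNNB1, MYC and MYU pairs (circles, squares, triangles), 1 array on each side, dashed lines at 2-fold. *LGR4* is at 1.20 where *LGR5* is at -2.09, *CEMIP2* is at 1.11 where *CEMIP* is at -1.01, and *CDCA7L* lies on the side of *CDCA7*.

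The genes around LGR5 in R-spondin signalling were examined next. Of 20 measured, 4 were 2-fold lower with CTNNB1 siRNA, against 4.14% of all genes, and 1, *LGR4*, was higher, against 2.8%. *ZNRF3* (-1.53) and *RNF43* (-1.48) encode the ubiquitin ligases that remove Wnt receptors and are neutralised by R-spondin with an LGR receptor, and *FZD3* (-1.33) and *FZD6* (-1.06) encode Wnt receptors. The R-spondin ligand genes *RSPO1* to *RSPO4* lay between -0.06 and 0.23 in this pair. None of the 20 was 2-fold apart in the MYC pair, where *ZNRF3* had -0.76, or in the MYU pair, where *FZD6* had -0.75. Over all genes 0.446% were 2-fold lower and 0.412% higher with MYC siRNA, and 0.0945% and 0.0608% with MYU siRNA. The list medians were -0.03, -0.03 and 0.02.

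A wider list of 42 crypt base and stem cell genes, of which 30 were measured, had 7 genes 2-fold lower and 2 higher with CTNNB1 siRNA. The shares over all genes were 4.14% and 2.8%, and the median of the list was -0.23. The lowest were *AXIN2* (-2.23), the feedback inhibitor of Wnt signalling, *MYB* (-1.61), a transcription factor of crypt progenitors, *ZNRF3*, *RNF43* and *EPHB3* (-1.47), a receptor that positions cells along the crypt. *LRIG1* (-1.33), a growth factor receptor antagonist found on stem cells, and *CDK6* (-1.12) completed the 7. The 2 higher genes were *CD24* (2.47), a surface glycoprotein gene, and *LGR4*. *RNF43*, *ZNRF3*, *LGR4* and *LGR6* are also in the R-spondin list above, and *LGR4* and *LGR6* among the paralogues, so these lists overlap. *OLFM4*, a secreted marker of human crypt base stem cells, had -0.59, and *MSI1*, *HOPX*, *SP5* and *MEX3A* lay between -0.05 and 0.03. With MYC siRNA 0 of the 30 were 2-fold apart, against 0.446% of all genes lower and 0.412% higher, and the median was -0.19. MYU siRNA gave 1 of 30 lower, *CDK6* (-1.17), against 0.0945% of all genes. In that pair *OLFM4* was at 0.66, and the median was -0.01.

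CDCA7 works with other proteins in DNA methylation. Of 8 such genes listed, 7 were measured, and *HELLS* was not. The median of the 7 was -1.29 with CTNNB1 siRNA, and 4 were 2-fold lower, against 4.14% of all genes. The 4 were *PCNA* (-2.40), the clamp of DNA polymerases, the maintenance methyltransferase gene *DNMT1* (-1.81), *UHRF1* (-1.32), which guides DNMT1 to newly copied DNA, and *ZBTB24* (-1.29), an activator of *CDCA7*. *PCNA* is also counted among the proliferation genes below. The de novo methyltransferase genes *DNMT3A* and *DNMT3B* had 0.06 and -0.22. With MYC siRNA *UHRF1* was 2-fold lower (-1.14), against 0.446% of all genes, and the median of the 7 was -0.54. MYU siRNA gave a median of -0.28 with *DNMT1* at -0.60.

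Partners of CD44 differed in both directions with CTNNB1 siRNA. Of 12 measured, 3 were 2-fold higher, against 2.8% of all genes, 1 was lower, against 4.14%, and 8 lay within 2-fold. The higher were *MET* (1.26), a growth factor receptor for which CD44 is a co-receptor, the protease gene *MMP14* (1.11) and *EZR* (1.02), which links CD44 to actin. *HNRNPA1* (-1.14), a splicing regulator, was lower. The splicing factor genes *ESRP1* and *ESRP2* had 0.41 and 0.22. None of the 12 was 2-fold apart in the other pairs. Over all genes 0.446% were 2-fold lower and 0.412% higher with MYC siRNA, and 0.0945% and 0.0608% with MYU siRNA. Among 13 measured hyaluronan genes, 1 was 2-fold lower with CTNNB1 siRNA, against 4.14% of all genes. It was *HMMR* (-1.63), a hyaluronan-binding protein gene that also acts at the mitotic spindle. *CEMIP2* was the 1 gene 2-fold apart with MYC siRNA, where 0.412% of all genes were 2-fold higher. The synthase genes *HAS2* and *HAS3* lay between -0.49 and -0.05 over the 3 pairs.

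E proteins pair with ASCL2 on DNA. The 3 measured, *TCF3*, *TCF4* and *TCF12*, had -0.21, -0.09 and -0.09 with CTNNB1 siRNA, and *TCF3* had -0.66 with MYC siRNA. Of 16 TCF/LEF factors and co-factors listed, 8 were measured. *LEF1* was the only TCF/LEF factor among them, as *TCF7*, *TCF7L1* and *TCF7L2* were not measured. Of the 8, *JUP* (1.38), the plakoglobin gene, was the 1 gene 2-fold apart in the CTNNB1 pair. There 2.8% of all genes were 2-fold higher. In the other pairs 0 of the 8 were 2-fold apart. The shares over all genes were 0.446% lower and 0.412% higher with MYC siRNA, and 0.0945% and 0.0608% with MYU siRNA. *LEF1* had values of 0.00, -0.07 and 0.03 over the 3 pairs.

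Genes that mark the dividing and the mature cells of the crypt were set beside the markers. Of 12 proliferation genes 10 were 2-fold lower with CTNNB1 siRNA, among them *MKI67* (-1.86) and *CCNA2* (-2.28), against 4.14% of all genes. The median of the 12 was -1.88. In the MYC pair 0.446% of all genes were 2-fold lower and 0.412% higher, and in the MYU pair 0.0945% and 0.0608%. In these pairs 0 of the 12 proliferation genes were 2-fold apart, with medians of -0.72 and -0.29. *CD44*, *LGR5* and *CDCA7* lay within the range of these genes in the CTNNB1 pair, -2.40 to -0.34, while in the MYC pair, where that range was -0.99 to -0.19, *LGR5* lay above it, *CDCA7* below it and *CD44* within it. Of 17 measured mature colonocyte genes, 9 were 2-fold higher with CTNNB1 siRNA, against 2.8% of all genes, and 0 lower, with a median of 1.06. With MYC siRNA 3 of the 17 were 2-fold higher, against 0.412% of all genes, and the median was 0. Of 10 Paneth and deep crypt secretory genes listed, 5 were measured, and *DEFA5* and *DEFA6* were among those not measured. None of the 5 was 2-fold apart in any pair, with the shares over all genes as given above for each pair. *LYZ*, the lysozyme gene, had 0.74 with MYU siRNA. Of 9 measured fetal and regenerative genes, *MSLN* (1.58) and *ANXA1* (1.15) were 2-fold higher with CTNNB1 siRNA, against 2.8% of all genes. Differences of cell number or cell state within a culture cannot be told apart here from differences of RNA per cell.

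**Figure D4:**
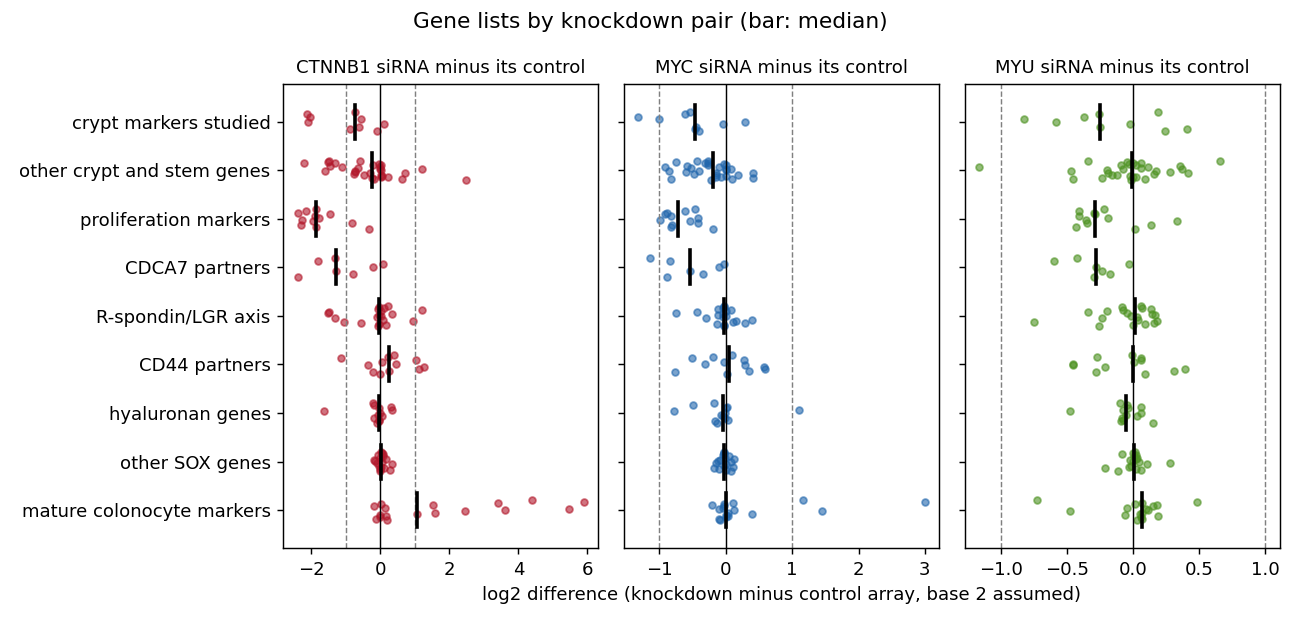
Log2 differences of single genes (dots) with list medians (bars) for the 9 markers and 8 related lists in the CTNNB1, MYC and MYU pairs, 1 array on each side, dashed lines at 2-fold, each panel with its own scale. The markers' medians of -0.73, -0.47 and -0.25 lie between those of the wider crypt list (-0.23, -0.19 and -0.01) and those of the proliferation genes (-1.88, -0.72 and -0.29). Some genes are in more than 1 list.

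Markers of other cells were listed too, although differences without levels cannot check the identity of the line. In the CTNNB1 pair 2.8% of all genes were 2-fold higher. So were 1 of 3 measured leukocyte markers, *CD68* (2.65), a lysosomal protein gene, and 1 of 4 fibroblast markers, *LUM* (2.78). In that pair *CD14* had -0.03, *LYZ* -0.23, *DCN* 0.01, *THY1* -0.04 and *VIM* -0.04. No marker of these lists or of the 2 measured endothelial genes was 2-fold apart in the MYC and MYU pairs. Over all genes 0.446% were 2-fold lower and 0.412% higher in the MYC pair, and 0.0945% and 0.0608% in the MYU pair. Of 11 measured colorectal epithelial genes 6 were 2-fold higher with CTNNB1 siRNA, against 2.8% of all genes, and 0 lower. Whether other cells have a part in any of the markers' values was not tested.

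In the MYU pair the sign of the markers went with the genomic length of their genes. *ASCL2*, *SOX4* and *SOX9*, with lengths of 2.1, 4.9 and 5.4 kb in RefSeq, were among the 2978 shortest protein-coding genes and had 0.19, 0.41 and 0.24. *CD44*, *PROM1*, *LGR5*, *CEMIP* and *SMOC2*, of 93.2 to 226.8 kb, were among the 2978 longest and had values of -0.82 to -0.02. *CDCA7*, of 14.1 kb, had -0.37 and did not follow length. It was among the next 2978 shortest genes, of which 45.2% lay below 0 in this pair. Over all protein-coding genes 57.3% of the 2978 longest lay below 0 in this pair, against 39.9% of the 2978 shortest, with medians of -0.02 and 0.02. The shares were 47.5% and 46.6% in the CTNNB1 pair. Among the longest genes, *CEMIP* had 0.638% below it with MYU siRNA, *LGR5* 2.01%, *CD44* 13.7% and *SMOC2* 14.1%, and among the shortest, *SOX4* had 95.8% below it. The part of length in these values was not tested further.

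**Figure D5:**
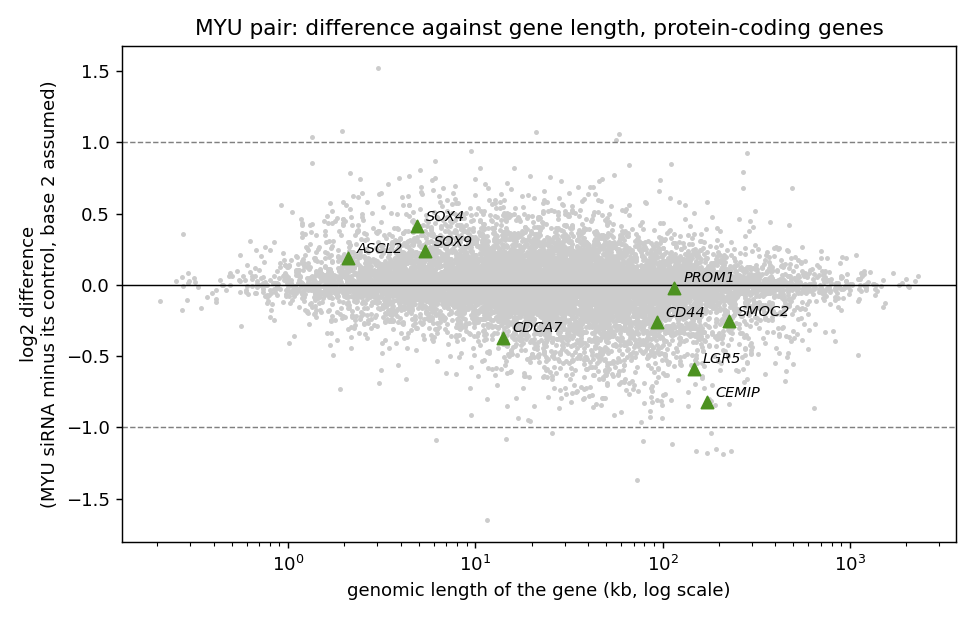
Log2 difference in the MYU pair (MYU siRNA minus its control, 1 array on each side) against genomic length (kb, log axis) of protein-coding genes (grey), with the 9 markers in green and dashed lines at 2-fold. The 3 short markers *ASCL2*, *SOX4* and *SOX9* lie above 0, and the 5 markers of 93.2 kb or more lie below it. *CDCA7*, of 14.1 kb, also lies below 0, at -0.37.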

How the data were processed

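RNA was extracted with TRIsure and biotin-labelled following Affymetrix's protocol, per the labels' protocols. The sources used here do not name the background correction, normalization, summarisation, genome build or software. Deposited were log2 values, centred by the authors pair by pair: the values of a probe set in a knockdown array and its control sum to 0 within 1e-06. The log base was assumed to be 2.

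The difference, knockdown minus control, was taken per probe set, with no filter on low values. Of 44629 probe sets 15835 had 1 gene symbol, 0 had several and 28794 were unlisted and unnamed here. They gave 14812 genes, as means over probe sets, of which 11911 were protein-coding. Names, gene types and lengths came from RefSeq (GRCh38.p14), in which all 15835 identifiers matched. Thresholds were 2-fold and, as an alternative, 1.5-fold. No p-value was computed. The array design's build is not given, so coordinates are printed only for the RefSeq promoter windows, which carry their own build. All markers are named. Of each of 13 gene lists and 4 marker lists, only some of the genes that the rule allows (those past 2-fold, or up to 4 with the largest differences) are named, and these, like some others of known role, were picked after their values were seen. Members and lists were chosen with earlier results of these data known. The code was tested on simulated data. Python 3.11.15, numpy 2.4.6, pandas 2.3.3 and matplotlib 3.10.9 were used.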

Additional observations from a re-analysis of the deposited data

How the results depend on the processing

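Each of the 9 markers had 1 probe set, so taking the probe set nearest to 0 or farthest from 0 left every value as it was, and centring each array on its median shifted no marker by more than 0.0077. With these settings no count of markers at 2-fold changed and 0 of the markers' differences past 2-fold changed sign. The threshold moved 3 counts. At 1.5-fold the count of lower markers was 6 in place of 3 in the CTNNB1 pair and 2 in place of 0 in the MYU pair. In the MYC pair it was 3 in place of 2. The counts include *LGR5* in the MYU pair at 1.502-fold and *CEMIP* in the MYC pair at 2.02-fold, both only just past a threshold. No paired analysis was possible because each group has 1 array and the values are already differences within a pair. Leaving out arrays, a filter on low values and other normalizations could not be run, since centring within pairs removed levels and the spread between controls. The precision of any single difference is therefore unknown, and all genes, expressed or not, enter the background shares.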
